A study of Mus musculus with 58 samples.

Results

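The genes described here encode 10 proteins of the nucleolus and of ribosome assembly, namely Ncl, Npm1, Bop1, Nat10, Rbm19, Rrn3, Utp18, Utp3, Polr1b and Gnl3. They were chosen because the authors had annotated at least 1 binding peak of the clock factor BMAL1 to each of them in NIH3T3 cells, in mouse liver or in both, out of 1137 genes so annotated. Their BMAL1 peaks are every entry of both BMAL1 lists that carries one of these symbols, which gave 13 entries, 9 in the NIH3T3 list and 4 in the liver list. Every CLOCK peak whose centre lay within 5 kb of one of these entries was added, which gave 1 NIH3T3 and 1 liver CLOCK peak. The members are thus 15 of 3172 peaks in 4 lists. Because presence in a BMAL1 list chose the genes, which list held a gene is given as a description, and no test was run on it.

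The study set BMAL1 binding in a cell line against binding in a tissue, by chromatin immunoprecipitation followed by sequencing (ChIP-seq). The cell line was NIH3T3, mouse fibroblasts whose clocks had been set in step by 30 min of 100 nM dexamethasone, a synthetic glucocorticoid. Its BMAL1 list belonged to 7 libraries taken 12 to 38 h after dexamethasone, although the name of the list gives 20 h alone, and its CLOCK list belonged to 6 libraries taken at 18 to 38 h. The liver CLOCK list came from 1 sample, called pooled in its label, of C57/BL6 mice aged 12 to 14 weeks, with no time of day given. For the liver BMAL1 list the authors had reprocessed libraries of an earlier study, taken at zeitgeber time 6 as counted from lights on, and the sources used here do not give the strain and age of those mice. In NIH3T3 cells the BMAL1 list held 463 peaks and the CLOCK list 1016, and in liver they held 1254 and 439 peaks, as positions in the mouse build mm9. No list gave a height, a score or a value per library, so the depth behind a peak is unknown and no replicate error exists. Both BMAL1 lists began with the same 263 intervals, and the sources used here do not say how the lists were put together. A peak missing from a list can lie under the threshold of that list, so it was not read as a site without the factor.

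Ribosomes are built in the nucleolus, where RNA polymerase I transcribes the ribosomal RNA precursor and a large set of assembly factors cuts, modifies and folds it around ribosomal proteins. Making ribosomes is among the most costly tasks of a growing cell, and in mouse liver the process is known to follow a daily rhythm tied to the clock and to feeding. BMAL1 binds DNA as a pair with CLOCK, at a short element called the E-box, whose canonical form is the palindrome CACGTG.

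For 3 of the genes the promoter sequence is shown, because the authors' distances put the centre of a BMAL1 peak inside the window and the window holds the canonical E-box. Each window runs from 250 bases before to 50 bases after the gene's start, 5′ to 3′ on the gene's own strand, as RefSeq gives it for build GRCm38.p6. Capitals mark CACGTG, which reads the same on both strands. The windows lie at chr16:13780449-13780748 (plus strand) for Rrn3, chr11:93885717-93886016 (minus strand) for Utp18 and chr5:120116263-120116562 (plus strand) for Rbm19. These are GRCm38.p6 positions and cannot be set against the mm9 positions of the peaks below.
Rrn3: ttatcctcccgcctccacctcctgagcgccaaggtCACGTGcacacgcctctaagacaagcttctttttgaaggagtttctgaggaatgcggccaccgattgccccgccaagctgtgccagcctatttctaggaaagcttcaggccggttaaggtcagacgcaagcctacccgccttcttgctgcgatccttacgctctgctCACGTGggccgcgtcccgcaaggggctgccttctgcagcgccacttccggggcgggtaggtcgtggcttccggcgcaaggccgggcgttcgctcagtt
Utp18: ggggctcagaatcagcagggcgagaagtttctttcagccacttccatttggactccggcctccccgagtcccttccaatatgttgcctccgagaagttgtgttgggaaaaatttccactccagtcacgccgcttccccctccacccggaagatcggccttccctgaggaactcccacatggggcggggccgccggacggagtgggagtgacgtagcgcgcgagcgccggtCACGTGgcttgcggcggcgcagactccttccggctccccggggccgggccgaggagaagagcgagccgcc
Rbm19: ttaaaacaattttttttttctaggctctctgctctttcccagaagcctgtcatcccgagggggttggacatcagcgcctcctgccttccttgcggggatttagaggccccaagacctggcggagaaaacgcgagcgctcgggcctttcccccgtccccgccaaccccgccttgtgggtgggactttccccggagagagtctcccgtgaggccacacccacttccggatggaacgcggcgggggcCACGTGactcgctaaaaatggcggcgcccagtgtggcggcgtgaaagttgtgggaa

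The E-box letters stood close to the centres of the BMAL1 peaks at these 3 start sites. In the following, negative distances are upstream of the start site and positive ones downstream. In Rrn3 the nearer of its 2 E-boxes was centred at -45 bp and the NIH3T3 peak at -41 bp, so they lay 4 bp apart, while the other E-box, at -212 bp, was 171 bp from the peak centre. In Rbm19 the E-box was centred at -3 bp and the NIH3T3 peak at -9 bp, 6 bp apart. In Utp18 the E-box was centred at -17 bp and the peak, found in both lists, at -31 bp, 14 bp apart. The E-box position is counted from the RefSeq start and the peak position from the authors' annotated start, and both were taken as the same base, which was not tested. Each of the 3 nearer E-boxes fell inside the width of its peak.

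**Figure D1:**
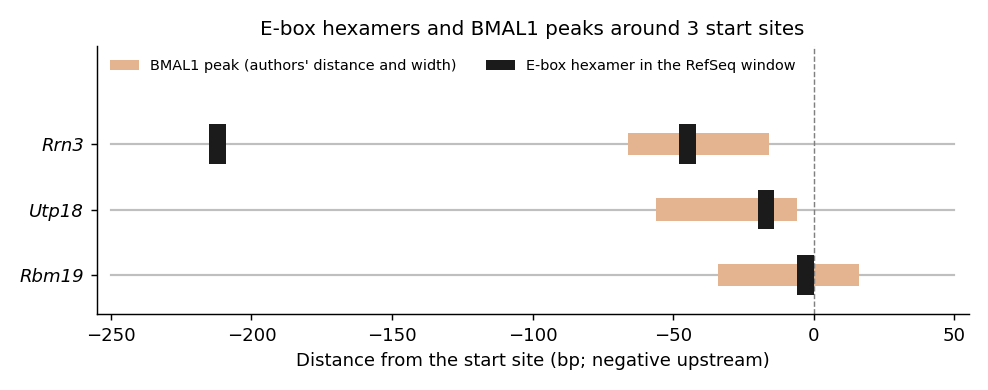
Distance from the start site in bp (horizontal axis) for Rrn3, Utp18 and Rbm19, with the BMAL1 peak as a wide bar and each E-box hexamer as a narrow black bar. The E-box at -45 bp in Rrn3, -17 bp in Utp18 and -3 bp in Rbm19 lies inside the peak, and the E-box of Rrn3 at -212 bp lies outside it.

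RefSeq windows were at hand for 8 of the 10 genes, all but Npm1 and Bop1. For 4 of these 8 the peak centre lay inside the window by the authors' distance, and 3 of the 4 held CACGTG, the exception being Nat10. Of the 249 genes of either BMAL1 list with a peak centre in that range and a window, 57.4% held CACGTG, so 3 of 4 is near the share for BMAL1 promoter peaks at large. Counted by peak, the share was 72.4% for the NIH3T3 list alone and 70.2% for both lists, the classes of these 4 genes. It was 47.5% for the liver list alone. Of all 32851 windows in the RefSeq table, 7.15% held it. The distances of 4, 6 and 14 bp compare with a median of 24 bp from peak centre to nearest copy over the 193 BMAL1 peaks, these included, whose window held CACGTG. All 3 had a copy within 15 bp, as did 37.3% of those 193 peaks, a limit chosen after the values were seen and not tested. For peaks of the NIH3T3 list alone the median was 17.5 bp and the share within 15 bp 45.2%. For peaks of both lists they were 21 bp and 37.6%, and for the liver list alone 31.5 bp and 31.8%. A related element, CACGTT, was searched on both strands and occurred in none of the 8 windows, against 4.68% of all windows. Among the 4 genes with a peak centre in the window it was in 0, against 10.0% of those 249 genes. Another, spelled CACGCG, was also in none of the 8, against 9.27% of all windows, and in 0 of the 4, against 35.7% of the 249 genes. No stretch of bases matches more than 1 of the 3 elements. The window of Nat10 starts at a site inside the gene's RefSeq interval rather than at its edge, so it may not be the promoter the authors used. For Ncl, Utp3, Polr1b and Gnl3 the peak centre lay outside the window, and no letters could be set against the peaks of Ncl, Utp3 and Polr1b. The Gnl3 peak, 76 bp wide and centred at 57 bp, would reach into the end of its window if the authors' start is that of the window, which is not settled. That window held none of the 3 elements.

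Ncl and Utp18 had the same BMAL1 interval in both contexts, Npm1, Bop1, Nat10, Rbm19, Rrn3 and Utp3 had peaks in the NIH3T3 list alone, and Polr1b and Gnl3 in the liver list alone. All but Polr1b had a peak within 1 kb of the annotated start site, and 7 of 10 had one within 100 bp. Over all 1137 genes of either list, 17.0% were in both lists, 47.5% had a peak within 1 kb and 23.7% had one within 100 bp. The 13 entries were 11 different intervals at 10 loci, 1 locus a gene, spread over 7 chromosomes. Of the 11 intervals 7 were 50 bp wide and the other 4 were 60 to 99 bp wide.

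**Figure D2:**
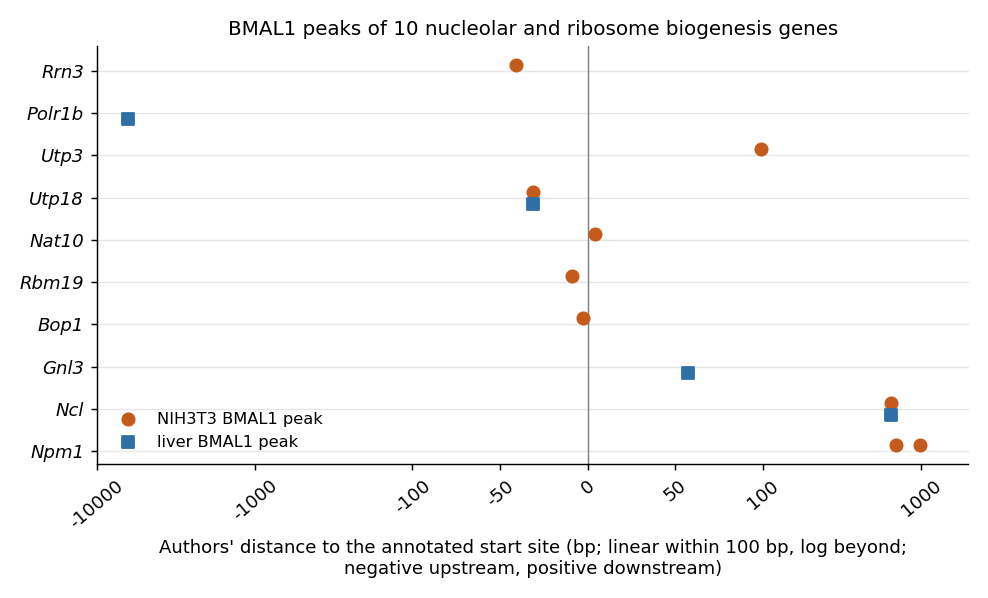
The authors' signed distance from each BMAL1 peak to the annotated start site in bp (horizontal axis, linear within 100 bp and logarithmic beyond), with 1 row a gene, circles for the NIH3T3 list and squares for the liver list. Peaks of 7 genes lie within 100 bp, those of Ncl and Npm1 lie 647 to 985 bp downstream, and that of Polr1b lies 6350 bp upstream.

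The transcription machinery of RNA polymerase I was represented by Rrn3 and Polr1b, in different contexts. Rrn3 encodes the factor also called TIF-IA, which links RNA polymerase I to the initiation complex on ribosomal DNA and is a target of growth signals. Its NIH3T3 peak covered chromosome 16, 13780727 to 13780776, at -41 bp. The nearest liver BMAL1 peak was 4631 kb away and the nearest NIH3T3 CLOCK peak 478 kb away. Polr1b encodes the second largest subunit of RNA polymerase I. Its liver peak covered chromosome 2, 128920357 to 128920406, at -6350 bp, which made it the single peak of the 13 beyond 1 kb. The nearest NIH3T3 BMAL1 peak and the nearest liver CLOCK peak were both 104 kb from it. The Rrn3 peak stood next to its start, while the link of the liver peak to Polr1b rests on the authors' annotation over a longer distance.

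The early assembly particle of the small subunit gave 4 genes, and all of them had their BMAL1 peak within 100 bp of the start. Utp18 and Utp3 encode parts of the small subunit processome, the particle that forms on the nascent precursor RNA. The Utp18 peak covered chromosome 11, 93747087 to 93747136, at -31 bp, with the same start and end in the NIH3T3 and the liver list. It stood as entry 60 of each list, inside the block of 263 identical entries, so both lists may not give this site independently. No CLOCK peak was near it, the nearest being 663 kb away in the NIH3T3 list and 427 kb in the liver list. The Utp3 peak, in the NIH3T3 list alone, covered chromosome 5, 88983583 to 88983632, at 99 bp, and the nearest liver BMAL1 peak was 362 kb away.

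Nat10 and Rbm19 encode RNA-directed factors of the same pathway, and both had peaks in the NIH3T3 list alone. Nat10 encodes an acetyltransferase that modifies cytidines of the small subunit RNA. Its BMAL1 peak covered chromosome 2, 103601319 to 103601378, at 4 bp. An NIH3T3 CLOCK peak covered 103601402 to 103601451 on the same chromosome, 78 bp from centre to centre and with no base in common. Nat10 was the single gene of the 10 with a CLOCK peak of the NIH3T3 list within 5 kb. The nearest liver BMAL1 peak was 982 kb away and the nearest liver CLOCK peak 191 kb away. Rbm19 encodes an RNA-binding protein needed for processing of the precursor RNA. Its peak covered chromosome 5, 120566486 to 120566535, at -9 bp, with the nearest liver BMAL1 peak 1545 kb and the nearest NIH3T3 CLOCK peak 210 kb away.

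The large subunit pathway was represented by Bop1 in NIH3T3 cells and Gnl3 in liver, each within 100 bp of the start. Bop1 encodes the scaffold of the PeBoW complex, which it forms with Pes1 and Wdr12 and which matures the large subunit RNA. Its peak covered chromosome 15, 76307678 to 76307727, at -3 bp, the shortest distance of the 13 entries. The nearest liver BMAL1 peak lay 99.1 kb from it, the closest that any of the 6 NIH3T3-alone genes came to the liver list. Gnl3 encodes nucleostemin, a nucleolar GTPase that moves between nucleolus and nucleoplasm. Its liver peak covered chromosome 14, 31832181 to 31832256, at 57 bp, and the nearest NIH3T3 BMAL1 peak was 2428 kb away. A second liver peak stood 3723 bp from it, at 31835917 to 31835966, and was annotated to the neighbouring gene Pbrm1 at 8 bp. Neither of these peaks had a liver CLOCK peak within 5 kb.

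The abundant nucleolar proteins nucleolin and nucleophosmin had their peaks farther into the gene than the other promoter-bound genes. Ncl encodes nucleolin, which binds ribosomal RNA precursor and ribosomal DNA chromatin. Its peak covered chromosome 1, 88255344 to 88255423, at 647 bp downstream of the start, with the same start and end in the NIH3T3 and the liver list. It was entry 12 of each, inside the block of 263 identical entries, so both lists may not give this site independently. A liver CLOCK peak covered 88255227 to 88255476, 32 bp from centre to centre, so it took in all 80 bp of the BMAL1 interval. The nearest NIH3T3 CLOCK peak was 3476 kb away. Npm1 encodes nucleophosmin, a histone and ribosomal protein chaperone. It was the single gene of the 10 with more than 1 interval, and both stood in the NIH3T3 list alone, at chromosome 11, 33062063 to 33062112 and 33062328 to 33062426. Their distances were 985 and 696 bp downstream, and their centres lay 290 bp apart, so they count as 1 locus. The nearest liver BMAL1 peak was 1319 kb away and the nearest NIH3T3 CLOCK peak 532 kb away.

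**Figure D3:**
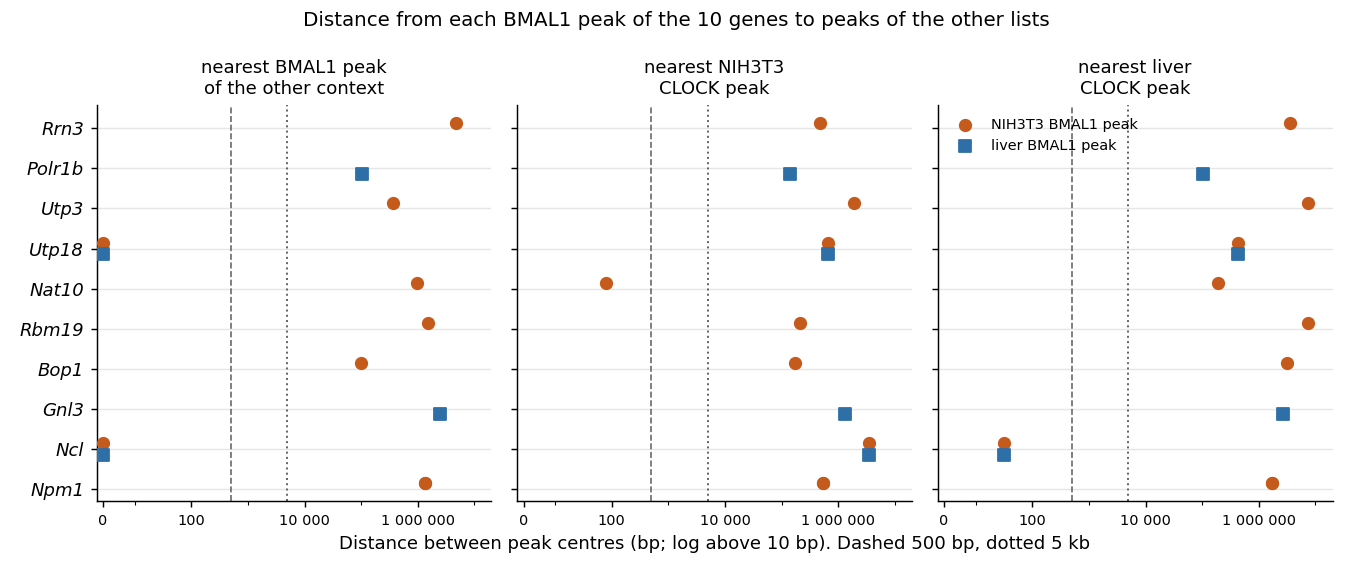
Distance in bp from the centre of each BMAL1 peak of the 10 genes to the nearest peak of another list (horizontal axes, logarithmic above 10 bp), for the BMAL1 list of the other context, the NIH3T3 CLOCK list and the liver CLOCK list, with lines at 500 bp and 5 kb. Ncl and Utp18 lie at 0 in the first panel, Nat10 at 78 bp in the second and Ncl at 32 bp in the third, and all other points lie beyond 99 kb.

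Peaks of the 10 genes were either at the same place in both BMAL1 lists or far apart. The shared intervals, of Ncl and Utp18, stood in the block of 263 identical entries, so the lists may not give them independently. Over the whole NIH3T3 list, 56.8% of peaks had an identical interval in the liver list. The 7 entries of genes in the NIH3T3 list alone lay 99.1 to 4631 kb from any liver BMAL1 peak, and the 2 entries of genes in the liver list alone lay 104 and 2428 kb from any NIH3T3 BMAL1 peak. In the NIH3T3 list 2 of the 9 entries had a liver BMAL1 peak within 500 bp, where 59.2% of all 463 peaks did (95% Clopper-Pearson interval 54.5 to 63.7). Among NIH3T3 peaks within 1 kb of a start site, the class that all 9 entries belong to, the share was 69.3%. In the liver list 2 of the 4 entries had an NIH3T3 BMAL1 peak within 500 bp, where 21.8% of all 1254 peaks did (19.5 to 24.2), and among liver peaks within 1 kb of a start site the counts were 2 of 3 and 41.1%. Since the genes were chosen from these lists, these counts show which genes were picked and were not tested.

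Most BMAL1 peaks of the 10 genes had no CLOCK peak beside them. In NIH3T3 cells 1 of 9 entries, that of Nat10, had a CLOCK peak of the same context within 500 bp, against 22.0% of all BMAL1 peaks of the list (18.3 to 26.1). In liver 1 of 4 entries, that of Ncl, had one, against 4.31% (3.25 to 5.58). Widening the limit to 5 kb added none in either context and gave background shares of 22.9% and 4.63%. The next nearest CLOCK peaks of the same context were 174 kb away in NIH3T3 cells, at Bop1, and 104 kb away in liver, at Polr1b. By gene, 2 of 10 had such a CLOCK peak, against 7.74% of the 1137 genes of either list. With 1 entry in each list, no difference from these shares was tested. As a reference from the clock itself, Dbp, a clock-controlled bZIP factor, had 3 CLOCK peaks within 5 kb of its 6 BMAL1 peaks in NIH3T3 cells, and 3 within 5 kb of its 4 in liver. Per2, a clock repressor, had 1 CLOCK peak within 5 kb of its 3 BMAL1 peaks in each context. Cry1, another clock repressor, had 2 within 5 kb of its 3 BMAL1 peaks in NIH3T3 cells and 1 within 5 kb of its 3 in liver. The time of the liver CLOCK sample is not given, so the liver lists may differ in time of day.

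**Figure D4:**
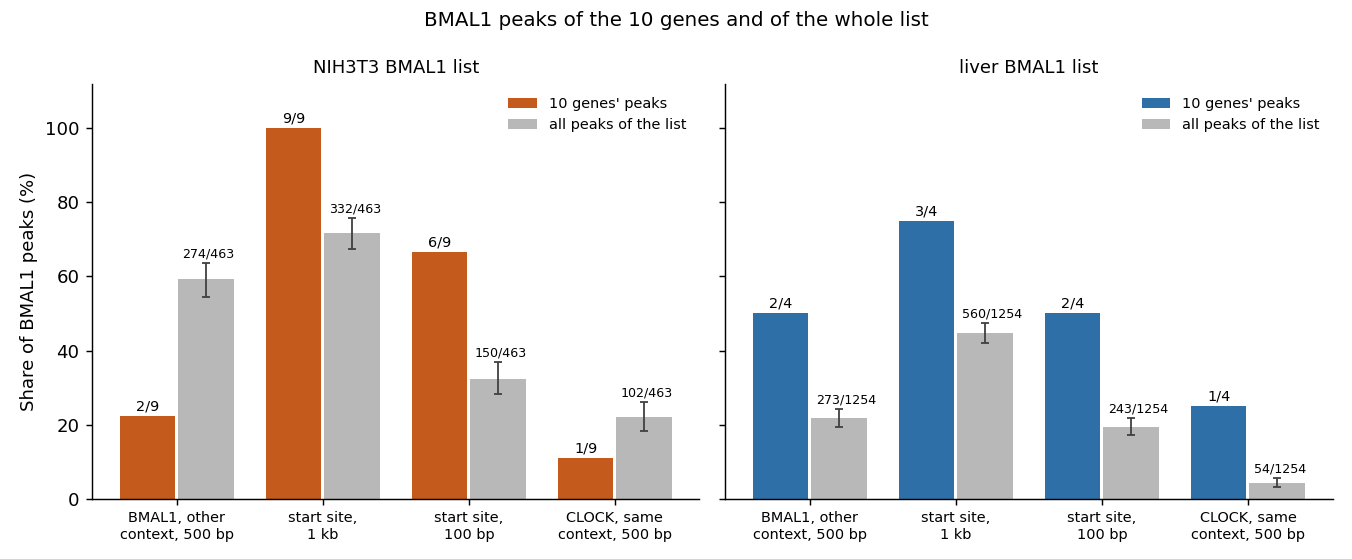
Share of BMAL1 peaks in percent (vertical axis) for the entries of the 10 genes (coloured bars) and for all peaks of the list (grey bars with exact 95% binomial intervals), in the NIH3T3 list and the liver list, with counts above the bars. All 9 NIH3T3 entries and 3 of 4 liver entries lie within 1 kb of a start site, and CLOCK stands at 1 entry in each list.

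Most of the peaks, though not those of Ncl and Npm1 in NIH3T3 cells and of Polr1b in liver, lay nearer to a start site than the median peak of their list. In NIH3T3 cells all 9 entries were within 1 kb and 6 within 100 bp, where 71.7% and 32.4% of all peaks were, and the median absolute distance was 41 bp (range 3 to 985) against 219 bp over the list. In liver 3 of 4 entries were within 1 kb and 2 within 100 bp, where 44.7% and 19.4% of all peaks were, and the median was 352 bp (range 31 to 6350) against 2182 bp. The genes were picked through the authors' annotation of peaks to genes, so the short distances were not tested. By side, Rrn3, Polr1b, Utp18, Rbm19 and Bop1 had their peak upstream of the start and Utp3, Nat10, Gnl3, Ncl and Npm1 downstream.

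In the RefSeq table of GRCm38.p6, 4 of the 10 genes had another protein-coding gene within 1 kb of either end of their interval, which need not be the start, against 31.7% of 21900 protein-coding genes, a share close to that of the 10. These were Utp18 beside Mbtd1, Gnl3 beside Pbrm1 and Glt8d1, Nat10 beside Caprin1, and Bop1 beside Mroh1, Scx and Hsf1. Hsf1 encodes the main heat shock transcription factor, Mbtd1 a chromatin protein and Pbrm1 a subunit of a SWI/SNF chromatin remodelling complex. The promoter windows of Utp18 and Mbtd1 lie on opposite strands and share 183 bases, and the E-box of Utp18 printed above is in the shared part. The windows of Gnl3 and Pbrm1 likewise lie on opposite strands and share 106 bases. The liver peaks annotated to Gnl3 at 57 bp and to Pbrm1 at 8 bp lay 3723 bp apart. The authors' starts of these genes were therefore not both those of the windows, and the Pbrm1 peak was not placed in the shared part. In all, 4 of the 8 genes with a window shared part of it with a window on the other strand, against 11.9% of 27025 genes, Ncl and Polr1b sharing theirs with the genes C130036L24Rik and Gm46764. The lists name 1 gene a peak, so a peak in a promoter of this kind cannot be assigned to one of the 2 genes from position alone. Of these 4 genes, Utp18 alone had its peak centre inside its window. Bop1 had no window, so whether its peak at -3 bp lies in a shared promoter could not be seen. Pbrm1 was the single one of these protein-coding neighbours annotated to a BMAL1 peak.

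In 6 lists that together held 193 further genes of the ribosome pathway, 7 (3.63%) were annotated to a BMAL1 peak by symbol, against 4.06% of 21900 protein-coding genes, a share near that of the lists. The 10 genes above had been taken out because they carry peaks, and with them the count was 17 of 203 (8.37%). No genes with peaks were taken out of the 21900, so 3.63% and 4.06% were not counted alike. The 193 and the 203 also held 19 small nucleolar RNA host genes, which as a class do not code for protein, unlike the 21900. All 7 further genes were in the liver list alone, an outcome fixed by the removal. The 10 genes taken out included all 8 genes of the 6 pathway lists with an NIH3T3 peak by symbol. The 69.7% of the 1137 genes of either list that were in the liver list alone is thus not a like share. The RNA polymerase I list gave 1 of 19 further genes, Taf1c, a subunit of the selectivity factor SL1, with a liver peak at 129 bp. The small subunit assembly list gave 3 of 53, Dcaf13 at 9 and 12501 bp, Utp11l at -202 bp and Krr1 at -152361 bp, a distance at which the link to the gene is loose. The large subunit list gave 1 of 61, Nmd3, the export adaptor of the large subunit, with liver peaks at 182 and 477 bp. A gene without a peak stood in that list under both its old and its new symbol, so 61, 193 and 203 count it more than once. The list of box C/D and H/ACA particles and abundant nucleolar proteins gave 0 of 20. The RNA polymerase III and 5S RNA list gave 2 of 21, Gtf3a, which binds the 5S genes, at 14 bp and Polr3e, a polymerase III subunit, at -16 bp, both in liver. The window of Polr3e held CACGTG, 24 bp from the peak centre, and that of Gtf3a held none. The small nucleolar RNA host list gave 0 of 19 by symbol, and 1 when synonyms were matched, since Gm11974 is a synonym of Snhg15. That gene had the same interval in both lists, at 0 bp. None of these 7 genes, and not Snhg15, had a CLOCK peak of the same context within 5 kb of its BMAL1 peaks. The lists were chosen with the results for the 10 genes known, and membership of a list says nothing of whether a gene's RNA followed BMAL1, since RNA was not analysed here.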

How the data were processed

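The authors deposited 4 peak lists in which each peak has a chromosome, a start and an end. Entries of the BMAL1 lists also carry a gene symbol and a signed distance in bp to its start site, both the authors' own. Per the submitters' processing notes the build was mm9, and Bowtie, STAR, SAMtools, bedtools and FastQC are named without versions or roles. The sources used here do not give the peak caller, its threshold or whether libraries were pooled. The gene column of the NIH3T3 CLOCK list was not used, because it often names a gene on another chromosome. Starts are printed counting from 1.

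Distances between peaks are between centres. Peaks within 500 bp counted as the same site, and peaks within 1 kb of the annotated start as promoter peaks. In 171 pairs of peaks of 1 gene, the authors' distances pointed to the same start site within 2 bp if positive meant downstream, and 0 pairs fitted the opposite sign. Further pairs had different start sites or were undecided. On the plus and minus strands these were 23 and 28 in the NIH3T3 list and 38 and 36 in the liver list. Shares over a whole list have exact 95% Clopper-Pearson intervals, which cover counting error over peaks only. No test was run. The members, the lists of further genes, the motifs and the alternatives were chosen with earlier results of these data known. The list of ribosomal protein genes is not reported here. Named genes were the members, further list genes with a peak, neighbours of members, and Per2, Cry1 and Dbp. Counting was tested on simulated data. The work used SciPy 1.17.1, pandas 2.3.3, NumPy 2.4.6 and matplotlib 3.10.9 under Python 3.11.15.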

Additional observations from a re-analysis of the deposited data

How the results depend on the processing

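Of 14 alternatives, 13 left the count of genes within 1.5 times the reported one. Genes with a BMAL1 peak in both contexts numbered 2, as reported, with limits of 200 and 1000 bp, with an overlap of at least 1 bp, with identical intervals and with entries joined into loci. None of these alternatives could change that count. Both genes had identical intervals, and all other entries lay at least 99.1 kb from the other list. Promoter genes numbered 7 at 200 bp and 9 at 5 kb, against 9. Genes with a CLOCK peak of the same context numbered 2 at 200 bp, 1 kb and 5 kb and with either CLOCK list. The distance limits could not change this count, with CLOCK peaks at 32 and 78 bp and the next at 104 kb. It was 1 when an overlap of at least 1 bp was required, because the Nat10 and CLOCK intervals share no base. CLOCK intervals had a median width of 50 bp in NIH3T3 cells and 250 bp in liver, so the overlap rule was stricter in NIH3T3 cells. Further pathway genes numbered 6 within 10 kb, against 7, and 8 with synonyms. No library could be left out, since the lists hold no value per library. No paired analysis was possible because the peak lists hold no values per sample. Peak height, depth and threshold are unknown, which limits every statement on a missing peak.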
